A study of Mus musculus with 5 samples.

Results

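Astrocyte identity and homeostatic function genes were followed as a set of 41 named mouse genes, chosen by symbol from known astrocyte transporters, channels, enzymes and transcription factors. The rule names genes and uses no measured value, although earlier results of these data were known when it was set. Each of the 41 had 1 row among the 20178 RefSeq transcripts counted. They were read in 5 RNA-seq libraries, 1 per condition, from cultured cells of ICR mice, an outbred strain, all at passage 2. Ventral midbrain (VM) astrocytes of postnatal day 5 were sequenced without virus, after the control virus (Cont) and after viruses that express Nurr1 and Foxa2 (N + F). Astrocytes of the cortex (Ctx) of postnatal day 5 and neural precursor cells (NPCs) of the embryonic day 12 cortex carried no virus. The viruses were lentiviral vectors with a CMV promoter, which is not limited to astrocytes, and Cont was the same backbone without an insert. All 4 astrocyte cultures are labelled as astrocyte progenitor cells, and dissociated cultures of this kind can hold other glia and connective tissue cells.

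Astrocytes clear glutamate and GABA released by neurons, convert glutamate to glutamine, buffer potassium and water, and share small molecules through gap junctions. They also store glycogen and release lipoproteins. These functions rest on transporters, channels and enzymes that build up as astrocytes mature under transcription factors such as Sox9 and the nuclear factor I (NFI) proteins.

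Totals lay between 20010818 and 22554835 reads. The sample titles and the treatment entries of the labels contradict each other for the Cont and N + F libraries, and the titles were followed. Nr4a2, which encodes Nurr1, had 81, 53, 183, 106 and 93 reads in VM without virus, Cont, N + F, Ctx astrocytes and Ctx NPCs. Foxa2 had 68, 15, 216, 1 and 0 reads in these libraries, where a count of 0 allows up to 3 reads. Both were therefore highest in the library titled N + F. If the treatment entries were right instead, every difference between N + F and Cont given here would change sign, and the comparisons of each with VM astrocytes without virus would change names.

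Marker genes of other cell types were read in the same libraries. The summed level of 15 microglial markers was 1579 CPM (counts scaled to a common library total) in Cont, against 400.4 in VM astrocytes without virus, 301.3 in N + F, 159.1 in Ctx astrocytes and 27.8 in Ctx NPCs. The 7 ependymal markers summed to 72.2 CPM in Cont and 325.4 CPM in VM astrocytes without virus. The 11 markers of mature oligodendrocytes summed to between 219.8 and 426.5 CPM in the 4 astrocyte libraries and to 7757 CPM in the library labelled Ctx NPC, where the myelin gene Mbp had 75411 reads and the astrocyte filament gene Gfap 122531 reads. That library also held the highest level of the 7 markers of oligodendrocyte progenitors, 3572 CPM, and of the 12 neuronal markers, 1345 CPM. The summed level of the 7 fibroblast markers ran from 248.9 CPM in Ctx NPCs to 8064 CPM in N + F, where Fn1 gave 111885 of 164020 reads, and single markers differed in order, with Dcn and Lum highest in Cont. Markers of cycling cells, 10 genes, summed to 110.3 CPM in Ctx astrocytes and to between 421.5 and 494.5 CPM elsewhere. The 11 neural progenitor markers summed to 6339 CPM in the library labelled Ctx NPC, within the range of the astrocyte libraries (6150 to 9074 CPM). The 6 endothelial markers lay between 8.3 and 134.9 CPM and the 5 mural markers between 325.5 and 1298 CPM. The endothelial marker Cldn5 and the oligodendrocyte marker Opalin were at 0 reads in VM astrocytes without virus, in N + F and in Ctx astrocytes, and the microglial gene Trem2 was at 0 in Ctx NPCs. In such bulk libraries fewer cells of a type and less RNA per cell cannot be told apart.

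**Figure D1:**
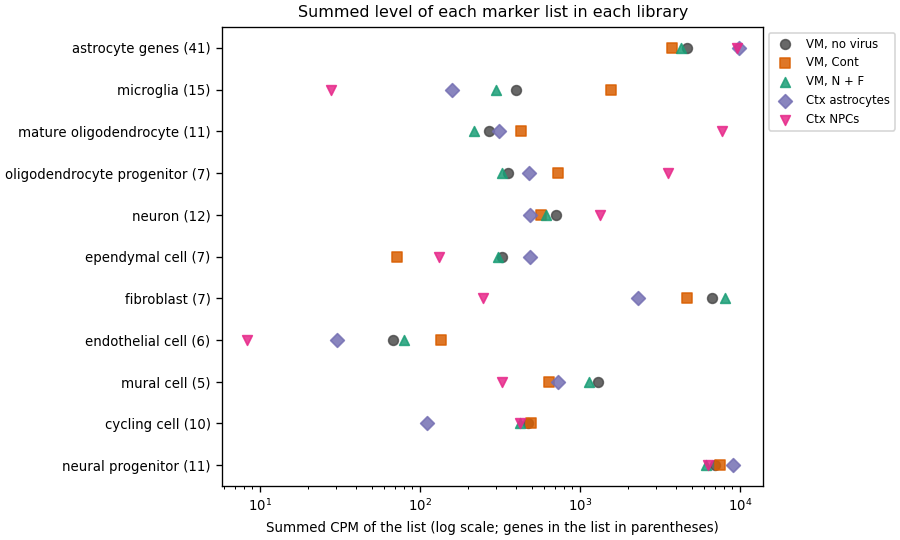
Summed level of marker genes of other cell types in each library, in CPM on a log axis, 1 point per library. The microglial sum is highest in Cont (1579 CPM), the sum of mature oligodendrocyte markers is highest in Ctx NPCs (7757 CPM), and the cycling-cell sum is lowest in Ctx astrocytes (110.3 CPM).

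The 41 genes together took 0.985% of all reads in Ctx astrocytes and 0.965% in Ctx NPCs. In the VM libraries they took 0.470% without virus, 0.378% in Cont and 0.427% in N + F. All 95% intervals given here, exact for ratios and Wilson for shares, describe the error of counting alone, because each condition had 1 library. Where PCR copies of a molecule are counted as separate reads, they understate even this error. The Wilson interval of the Cont share ran from 0.376% to 0.381%. The astrocyte genes thus formed about the same share of reads in both cortical libraries and a smaller one in each VM library. Between 34 and 37 of the 41 genes stood above 1 FPKM, the level scaled to transcript length and library total, in each library. By CPM, 24 of the 41 genes were highest in Ctx NPCs and 10 in Ctx astrocytes, and 21 were lowest in Cont. The same counts were not made over all transcripts, so these are not read as a trait of the 41 genes.

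Levels per transcript length spanned a wide range. Mt3, a metallothionein that binds zinc and copper, was the most abundant of the 41 genes in every library, with 558.5, 296.1, 514.6, 2048 and 950.8 FPKM in VM without virus, Cont, N + F, Ctx astrocytes and Ctx NPCs. Its level stood apart in Ctx astrocytes and was lowest in Cont. Atp1b2, a beta subunit of the sodium and potassium pump, followed in VM astrocytes without virus at 204.9 FPKM. At the other end, Gjb6, a gap junction connexin, had 1, 0, 3, 2 and 9 reads. It was therefore at or under the floor of 3 reads in all but the NPC library, whereas its partner connexin Gja1 stood between 42.3 and 142.0 FPKM. Slc7a10, an exchanger of small neutral amino acids, had 24, 10, 15, 20 and 60 reads and passed 1 FPKM in Ctx NPCs alone.

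**Figure D2:**
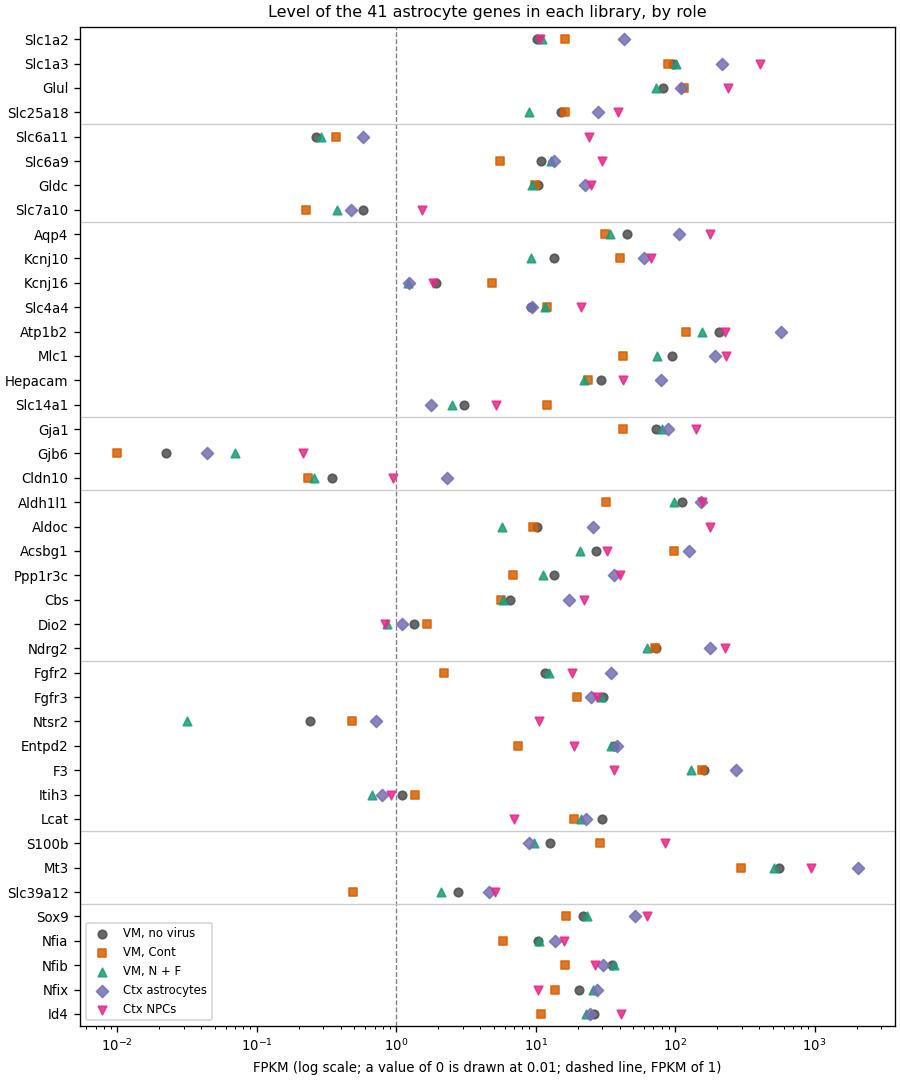
Level of each of the 41 astrocyte genes in each library, in FPKM on a log axis, grouped by role. Each point is 1 library; Mt3 is highest (296.1 to 2048 FPKM) and Gjb6 stays at or under 0.213 FPKM.

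The first comparison asked how cortical and midbrain astrocytes without virus differ. A gene was called where scaled counts differed 2-fold and either of the compared libraries passed 1 FPKM. Each condition had a single library, so no comparison of conditions could be tested. Of the 41 genes, 17 were called higher and 0 lower in Ctx astrocytes, with 37 past the filter. Over all transcripts past the filter, 4.49% were called higher and 9.89% lower. The median log2 ratio of the 41 genes was 0.77, against -0.05 over all transcripts past the filter. In the comparisons that follow, shares and medians over all transcripts are likewise over those past the filter. Medians of the 41 genes include the genes under it.

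Among glutamate genes, 2 of 4 were called higher in Ctx astrocytes. Slc1a2, the main glutamate uptake carrier of mature astrocytes, had 2538 reads in VM astrocytes without virus, 4252 in Cont, 2602 in N + F, 10727 in Ctx astrocytes and 2484 in Ctx NPCs. Ctx astrocytes were above all other libraries, with a log2 ratio to VM astrocytes without virus of 2.07 (95% counting interval 2.01 to 2.13). Slc1a3, the carrier already used by radial glia and immature astrocytes, had 8681, 8524, 8751, 19618 and 34135 reads. Both cortical libraries exceeded the 3 VM libraries, which were close to each other, and the log2 ratio of Ctx to VM astrocytes was 1.17 (1.13 to 1.20). Glul, which makes glutamine from glutamate, gave a log2 ratio of 0.42, and Slc25a18, a mitochondrial glutamate carrier, gave 0.89, both under 2-fold.

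Of the genes for water, ions and volume, 5 of 8 were called higher in Ctx astrocytes. Kcnj10, the inwardly rectifying potassium channel that carries potassium uptake, had 1570 reads in VM astrocytes without virus, 4952 in Cont, 1024 in N + F, 6970 in Ctx astrocytes and 7333 in Ctx NPCs. The Cont library stood nearer to the cortical libraries than to the other VM libraries. The log2 ratio of Ctx to VM astrocytes without virus was 2.14 (2.06 to 2.22). Aqp4, the water channel of astrocyte endfeet, had 4980, 3659, 3593, 11716 and 18530 reads, and Ctx astrocytes exceeded VM astrocytes by a log2 ratio of 1.23. Atp1b2 reached 1.48, and Mlc1 and Hepacam, whose proteins form a complex in astrocyte membranes, reached 1.02 and 1.44. Mlc1 was just past the 2-fold limit. The potassium channel subunit Kcnj16 and the urea transporter Slc14a1 were on the other side of 0, at -0.64 and -0.80, and the bicarbonate cotransporter Slc4a4 was at 0.02.

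Metabolic genes were called higher in 5 of 7 cases. Acsbg1, an acyl-CoA synthetase that activates long-chain fatty acids, had 1612, 6179, 1186, 7484 and 1813 reads in VM without virus, Cont, N + F, Ctx astrocytes and Ctx NPCs. Here too Cont and Ctx astrocytes were the high libraries, and the log2 ratio of Ctx to VM astrocytes was 2.21 (2.13 to 2.28). Ppp1r3c, which directs a phosphatase to glycogen, Cbs, an enzyme of sulphur amino acid metabolism, Aldoc, the brain form of the glycolytic aldolase, and Ndrg2 had log2 ratios of 1.44, 1.41, 1.31 and 1.28. Aldh1l1, the folate enzyme widely used as an astrocyte marker, was at 0.45 with 7446 and 10227 reads in VM and Ctx astrocytes, and Dio2, which activates thyroid hormone, was at -0.29.

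The other roles had 1 gene each called higher. These were Gldc of the glycine cleavage system at 1.13, the claudin Cldn10 at 2.65 (1.58 to 4.13) on 7 and 47 reads, the fibroblast growth factor receptor Fgfr2 at 1.58, Mt3 at 1.88 and the glial transcription factor Sox9 at 1.24. Fgfr3, a receptor common in astrocytes, was at -0.29. Slc6a11 and Ntsr2 were past 2-fold, at 1.12 and 1.52, but under 1 FPKM in both libraries, with 23 and 51 and with 8 and 24 reads. Among the transcription factors Nfia, Nfib, Nfix and Id4 lay between -0.20 and 0.43, so that only Sox9 of the 5 was called. S100b, the calcium-binding marker, was at -0.50 with 449 and 319 reads. Of the secreted and surface genes, F3 (tissue factor) was at 0.77 and Lcat, which esterifies cholesterol on lipoproteins, at -0.39.

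With N + F astrocytes as the VM reference, a choice added after the data were seen, 20 genes were called higher and 0 lower, against 4.41% and 8.69% of all transcripts. With Cont as the reference 23 were higher and 3 lower, against 11.7% and 14.5%. Against VM astrocytes without virus, the cycling markers were called lower in Ctx astrocytes in 10 of 10 cases and the microglial markers in 11 of 15. The fibroblast markers were lower in 5 of 7 and higher in 1, which was Ogn with 2032 and 5719 reads. The part of these markers in the differences was not tested.

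**Figure D3:**
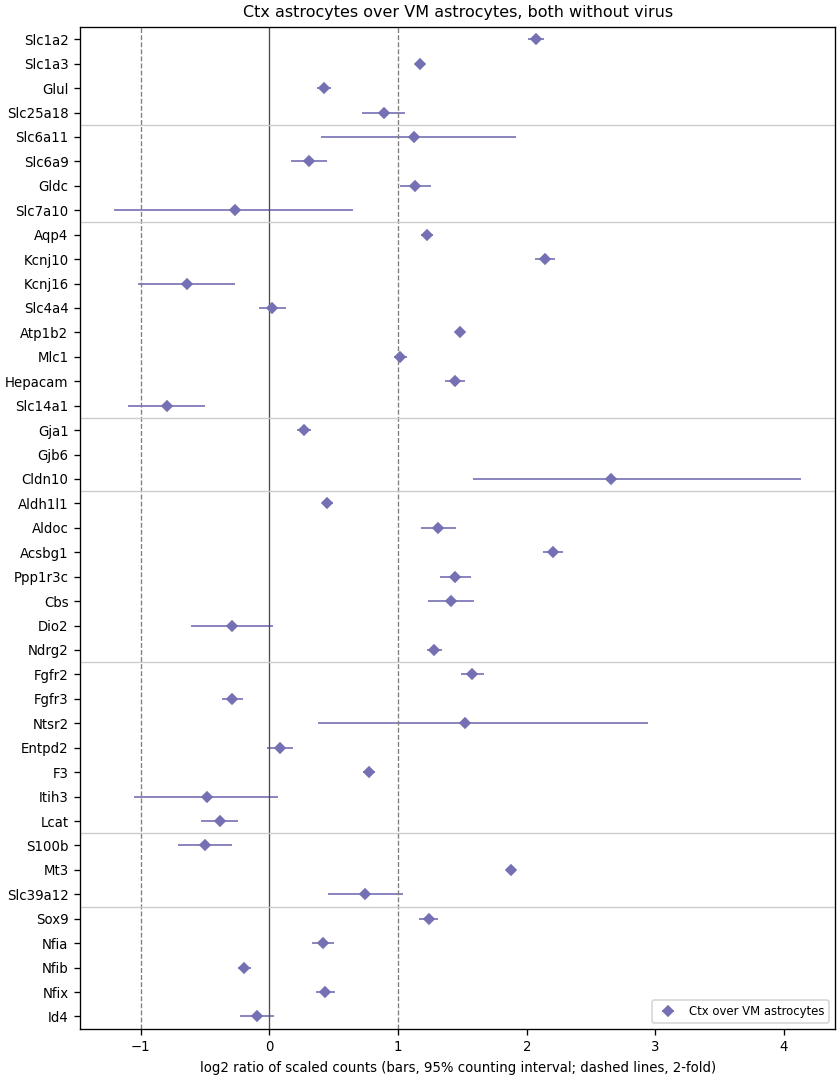
Log2 ratio of scaled counts of the 41 genes in Ctx astrocytes over VM astrocytes, both without virus, with 95% counting intervals; dashed lines mark 2-fold and genes at or under 3 reads in both libraries have no point. Of the 41 genes, 17 lie past 2-fold on the Ctx side with FPKM above 1 and 0 on the VM side; Cldn10, Acsbg1, Kcnj10 and Slc1a2 lie above a log2 ratio of 2.

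The next comparison asked what the control virus alone went with. In Cont against VM astrocytes without virus, 7 of the 41 genes were called lower and 5 higher, with 36 past the filter. Over all transcripts 8.48% were called lower and 7.30% higher. The median log2 ratio was -0.41 over the 41 genes and -0.36 over the 36 past the filter, against -0.01 over all transcripts past the filter. The genes called lower held a growth factor receptor, an ectonucleotidase and 2 transcription factors, and those called higher held potassium and urea transport genes, Acsbg1 and S100b.

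Fgfr2 had 1304 reads in VM astrocytes without virus, 260 in Cont, 1328 in N + F, 3913 in Ctx astrocytes and 1911 in Ctx NPCs. Cont alone was low, with a log2 ratio to VM astrocytes without virus of -2.41 (-2.61 to -2.22). Entpd2, which breaks down extracellular ATP, had 1510, 329, 1380, 1610 and 733 reads and a log2 ratio of -2.28. Slc39a12, a zinc transporter, had 158, 30, 114, 266 and 273 reads and a log2 ratio of -2.46 (-3.09 to -1.91). In each of these genes the Cont library was the lowest of the 5. Aldh1l1 had 7446, 2249, 6255, 10227 and 9626 reads, and its log2 ratio was -1.81. Mlc1 was at -1.18. Fgfr2 shares 314 exonic bases with a gene on its own strand, and Aldh1l1 shares 438 with a transcript on the opposite strand. In the GENCODE annotation 10 of the 41 genes share exonic bases with another gene, and the sources used here do not state whether reads were counted by strand.

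The log2 ratios of the 5 transcription factors in Cont against VM astrocytes without virus were below 0, and 2 of the 5 were called lower. Nfib had 6907, 3390, 6825, 6062 and 4957 reads across the libraries, and Id4, an inhibitor of helix-loop-helix factors, had 931, 408, 772, 875 and 1356. Both were past 2-fold, at log2 ratios of -1.11 and -1.27, while Nfia, Nfix and Sox9 were at -0.84, -0.57 and -0.41. The glycine transporter Slc6a9 and Ppp1r3c lay just inside the limit, each at -0.97.

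On the other side, Slc14a1 had 254, 1052, 198, 147 and 404 reads, and Kcnj16 had 152, 401, 91, 98 and 134. Both were highest in Cont of all libraries, with log2 ratios to VM astrocytes without virus of 1.97 and 1.31. Acsbg1 and Kcnj10, given above, were at 1.86 and 1.57. S100b had 449, 1093, 330, 319 and 2832 reads and a log2 ratio of 1.20, so that only the NPC library exceeded Cont. The microglial markers were higher in Cont in 13 of 15 cases and those of oligodendrocyte progenitors in 4 of 7. The markers of mature oligodendrocytes were higher in 7 of 11 and lower in 1, and the ependymal markers lower in 5 of 7 and higher in 1. The part of these markers in the differences was not tested.

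In N + F against Cont, the comparison of the 2 transduced cultures, 5 of the 41 genes were called lower and 7 higher, with 36 past the filter. Over all transcripts 9.73% were called lower and 9.53% higher. The median log2 ratio of the 41 genes was 0.14, against -0.02. The library titled Cont serves in this comparison and in the one before, and the values are therefore given side by side and not as separate evidence. Slc14a1 was lower in N + F by a log2 ratio of -2.26 (-2.49 to -2.04), Acsbg1 by -2.23 (-2.32 to -2.14), Kcnj10 by -2.12 (-2.22 to -2.03), Kcnj16 by -1.99 and S100b by -1.58. All 5 had been higher in Cont than in VM astrocytes without virus. Fgfr2 was higher in N + F by 2.50 (2.31 to 2.70), Entpd2 by 2.22, Slc39a12 by 2.06, Aldh1l1 by 1.62, Nfib by 1.16 and Id4 by 1.07. Slc6a9, with 768, 414, 867, 956 and 1960 reads, was higher by 1.22. It shares 1429 exonic bases with a gene on the opposite strand. Itih3, a heavy chain of a secreted protease inhibitor, had 87 reads in Cont and 39 in N + F and lay just inside the limit.

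Genes for glutamate handling were not called in this comparison. Slc1a2 was at -0.56, Slc1a3 at 0.19, Glul at -0.67 and Slc25a18 at -0.86. Aqp4 was at 0.12, Gja1 at 0.92 and Sox9 at 0.50, all under 2-fold. The microglial markers were called lower in N + F in 13 of 15 cases and those of oligodendrocyte progenitors in 5 of 7. Those of mature oligodendrocytes were called lower in 7 of 11 and higher in 1. The ependymal markers were called higher in 4 of 7 and lower in 1, and the fibroblast markers higher in 3 of 7, and their part in the differences was not tested.

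N + F against VM astrocytes without virus gave 0 of the 41 genes lower and 0 higher, with 36 past the filter. Over all transcripts 0.668% were called lower and 0.322% higher. The log2 ratios of the 36 genes ran from -0.85 for Aldoc, with 599 and 316 reads, to 0.35 for Nfix, with 2805 and 3408 reads. Of these, 26 were below 0 and 10 above, and the median of the 41 genes was -0.21 against -0.05 over all transcripts. Slc25a18 was at -0.77 with 447 and 250 reads, and Dio2 at -0.65 with 185 and 112 reads. Of the genes called lower in Cont against VM astrocytes without virus, Fgfr2 was at 0.09, Nfib at 0.05, Entpd2 at -0.06, Aldh1l1 at -0.18, Id4 at -0.20, Mlc1 at -0.37 and Slc39a12 at -0.40. The 5 genes called higher in Cont were below 0 here and under 2-fold, with Kcnj16 at -0.67, Kcnj10 at -0.55, S100b and Acsbg1 at -0.38 and Slc14a1 at -0.29. Under the filter, Ntsr2 had 8 reads in VM astrocytes without virus and 1 in N + F. With so few transcripts called in this comparison, 0 of 36 is near the share over all transcripts and is not a result about these genes. Whether a single Cont culture stands for its condition was not tested.

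**Figure D4:**
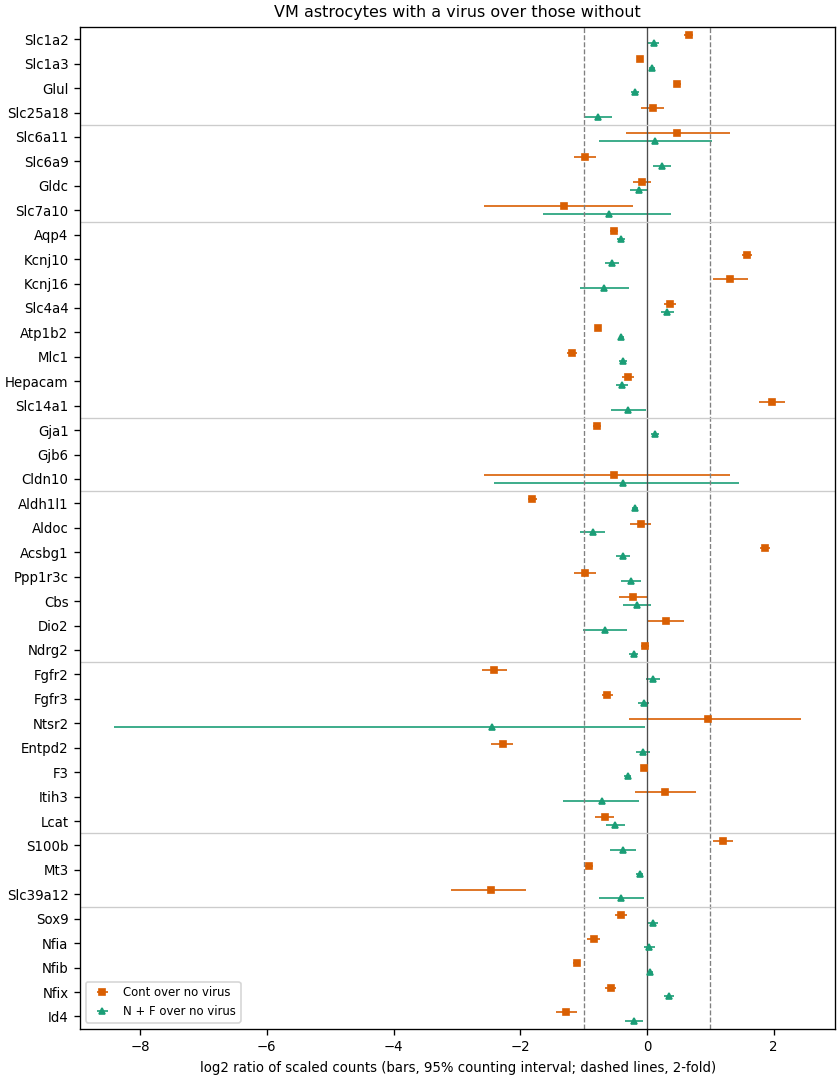
Log2 ratios of scaled counts of the 41 genes in Cont (squares) and in N + F (triangles), each over VM astrocytes without virus, with 95% counting intervals; dashed lines mark 2-fold and genes at or under 3 reads in both libraries have no point. The triangles of the 36 genes past the filter lie between -0.85 and 0.35, while the squares reach from -2.46 (Slc39a12) to 1.97 (Slc14a1).

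Promoters are shown for 4 of the genes that differed between the VM libraries, 2 that were high in Cont (Kcnj10 and Acsbg1) and 2 that were low (Entpd2 and Aldh1l1), and were searched for NFI sites because Nfib was called lower in Cont. Each is the 250 bases before the gene's start on RefSeq GRCm38.p6, printed 5′ to 3′ on the gene's strand, and capitals mark the NFI half-site TTGGC or its complement GCCAA. Kcnj10 lies at chr1:172340960-172341209 (plus strand), Acsbg1 at chr9:54661886-54662135 (minus strand), Entpd2 at chr2:25395624-25395873 (plus strand) and Aldh1l1 at chr6:90550543-90550792 (plus strand).
Kcnj10: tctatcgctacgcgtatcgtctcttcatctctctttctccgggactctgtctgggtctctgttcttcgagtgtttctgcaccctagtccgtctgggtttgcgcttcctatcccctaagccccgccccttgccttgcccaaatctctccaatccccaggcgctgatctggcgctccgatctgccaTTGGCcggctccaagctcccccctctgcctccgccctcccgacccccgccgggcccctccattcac
Acsbg1: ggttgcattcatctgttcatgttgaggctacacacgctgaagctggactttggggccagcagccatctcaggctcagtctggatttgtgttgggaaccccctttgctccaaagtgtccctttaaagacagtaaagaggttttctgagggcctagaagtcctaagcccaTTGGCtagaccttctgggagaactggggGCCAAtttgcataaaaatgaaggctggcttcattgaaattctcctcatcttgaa
Entpd2: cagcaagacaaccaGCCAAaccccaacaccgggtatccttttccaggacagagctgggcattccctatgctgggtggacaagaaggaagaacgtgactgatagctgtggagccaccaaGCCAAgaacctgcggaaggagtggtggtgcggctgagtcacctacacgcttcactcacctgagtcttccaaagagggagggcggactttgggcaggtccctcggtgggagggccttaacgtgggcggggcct
Aldh1l1: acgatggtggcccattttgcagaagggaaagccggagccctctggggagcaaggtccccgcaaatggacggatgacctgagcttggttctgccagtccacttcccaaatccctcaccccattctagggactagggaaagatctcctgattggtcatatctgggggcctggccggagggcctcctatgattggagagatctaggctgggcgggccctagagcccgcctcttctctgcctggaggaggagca
The Kcnj10 window held 1 half-site, the Acsbg1 and Entpd2 windows 2 each and the Aldh1l1 window 0.

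Promoter windows of 36 of the 41 genes were in the RefSeq set, 50 windows in all. The half-site TTGGC, on either strand, was in 26 of the 50 windows (52%), against 41.5% of all 32851 windows. The pair TTGGC and GCCAA 5 bases apart, the full NFI palindrome, was in 0 of the 50, against 0.0365% of all. AAAGGTCA, the site read by Nurr1 as a monomer, was in 2 windows (4%), both of Nfix, against 1.34%, and the forkhead motif TGTTTAC was in 2 windows, of Aldoc and Ndrg2, against 3.17%. The SOX motif ACAAAG was in 4 windows (8%) against 16.5%. All were searched on both strands, the half-site is contained in the palindrome, and a match of letters is a description of the window and not of binding.

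The last comparison set Ctx NPCs against Ctx astrocytes. Of the 41 genes, 9 were called lower in Ctx NPCs and 9 higher, with 39 past the filter. Each count is 23.1% of the 39. Over all transcripts 17.9% were called lower and 20.1% higher. Both counts are near these shares and are not a result about the 41 genes. The median log2 ratio of the 41 genes was 0.21, against 0.19 over all transcripts, and with TMM scaling, a trimmed mean of ratios, the median of all transcripts fell by 0.18 and 11 genes were lower and 6 higher. Glul, Slc6a9 and Slc4a4 then dropped under 2-fold, at 0.93, 0.95 and 0.98, and Hepacam and Fgfr2 passed it, at -1.08 and -1.12.

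The largest difference on the NPC side was in Slc6a11, a GABA transporter of astrocytes, which had 23 reads in VM astrocytes without virus, 34 in Cont, 24 in N + F, 51 in Ctx astrocytes and 1982 in Ctx NPCs. All 4 astrocyte libraries were low, and the log2 ratio of Ctx NPCs to Ctx astrocytes was 5.37 (4.98 to 5.81). Ntsr2, a neurotensin receptor of astrocytes, had 8, 17, 1, 24 and 328 reads and a log2 ratio of 3.84 (3.27 to 4.54). S100b, which cells of the oligodendrocyte lineage also make, reached 3.25 and Aldoc, with 599, 591, 316, 1497 and 9787 reads, reached 2.81. Each of these 4 genes is widely taken as a marker of astrocytes, and each was highest in the library labelled as precursor cells. Slc7a10 was at 1.66 (0.93 to 2.49) on 60 and 20 reads, and Slc14a1 at 1.55. The 4 genes for GABA, glycine and serine thus included 3 called higher in Ctx NPCs, against 20.1% of all transcripts. The transporter Slc6a9 was at 1.14 and Gldc at 0.14.

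On the astrocyte side, F3 had 6419, 6596, 4969, 11038 and 1371 reads, with the NPC library alone low and a log2 ratio of -2.91 (-2.99 to -2.83). Slc1a2 and Acsbg1 were at -2.01 and -1.95. Lcat, with 875, 582, 591, 673 and 191 reads, was at -1.72, and Nfix, with 2805, 1997, 3408, 3817 and 1350 reads, at -1.40. Atp1b2, Cldn10, Mt3 and Entpd2 lay between -1.33 and -1.03. Beside Slc1a2, Slc1a3 was at 0.90 and not called, and beside Nfix, Nfia and Nfib were at 0.20 and -0.19 and not called. Aqp4, Kcnj10, Aldh1l1 and Sox9 were at 0.76, 0.17, 0.01 and 0.28. The markers of mature oligodendrocytes were called higher in Ctx NPCs in 9 of 11 cases, those of oligodendrocyte progenitors in 6 of 7 and cycling markers in 9 of 10. Neuronal markers were higher in 9 of 12 and lower in 1, and neural progenitor markers higher in 5 of 11 and lower in 1. The microglial markers were lower in 10 of 15, and the fibroblast markers lower in 4 of 7 and higher in 1. The part of these markers in the differences was not tested.

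**Figure D5:**
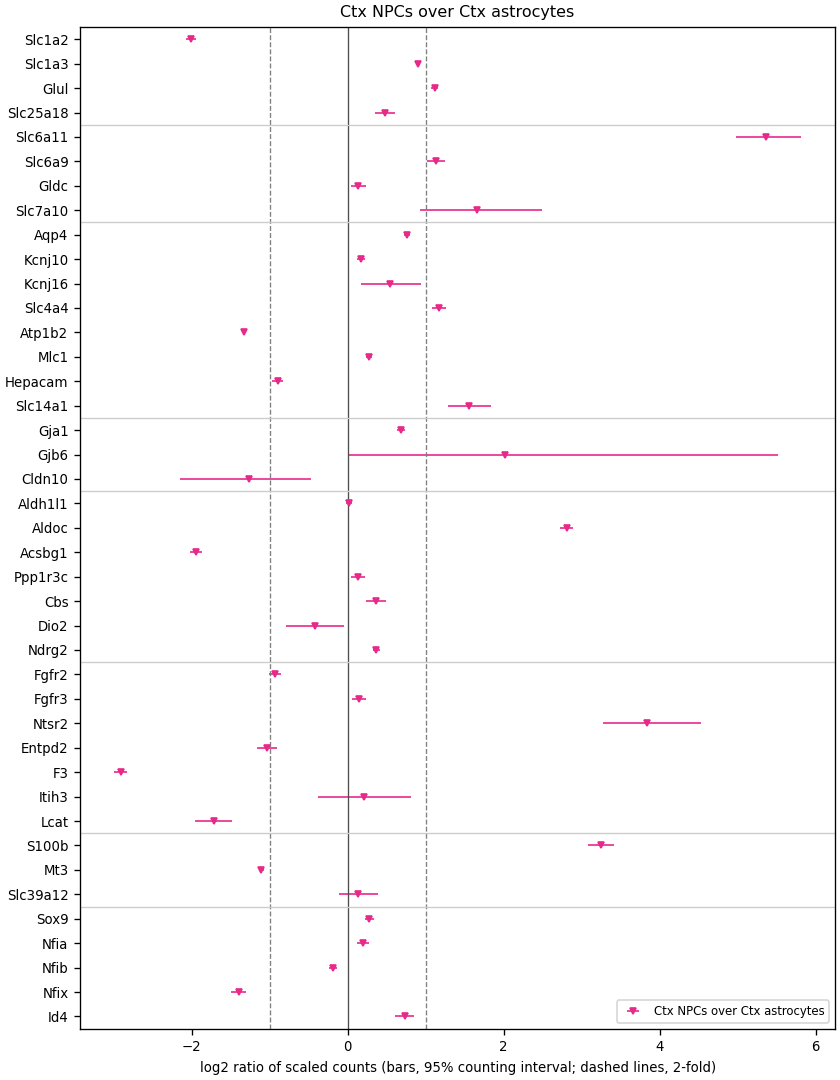
Log2 ratio of scaled counts of the 41 genes in Ctx NPCs over Ctx astrocytes, with 95% counting intervals; dashed lines mark 2-fold. Slc6a11 (5.37), Ntsr2 (3.84), S100b (3.25) and Aldoc (2.81) lie farthest on the NPC side and F3 (-2.91) farthest on the astrocyte side.

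A further 76 genes of the same functions were counted beside the 41. The share of all transcripts past the filter called the same way follows each count in parentheses. In Ctx against VM astrocytes 20 (4.49%) of the 76 were called higher and 5 (9.89%) lower, with 72 past the filter. Lhx2, a cortical transcription factor, led them with 108 and 2495 reads in VM and Ctx astrocytes and a log2 ratio of 4.51. In Cont against VM astrocytes without virus 11 (8.48%) were lower and 3 (7.30%) higher, with 70 past the filter. These are 15.7% and 4.29% of the 70. In N + F against Cont 7 (9.73%) were lower and 11 (9.53%) higher, also with 70 past the filter, or 10% and 15.7%. The share called lower there is near that over all transcripts and is not a result about these genes. Lhx2 was the largest in both comparisons, at 21 reads in Cont and 109 in N + F. The ratios of Lhx2 were -2.42 and 2.50 and rest on the same Cont library. In N + F against VM astrocytes without virus 0 (0.668%) were lower and 1 (0.322%) higher, with 70 past the filter. In Ctx NPCs against Ctx astrocytes 17 (17.9%) were lower and 16 (20.1%) higher, with 75 past the filter. These are 22.7% and 21.3% of the 75, near the shares over all transcripts, and are not a result about these genes. The glutamate receptor gene Grm5 (23 and 1495 reads in Ctx astrocytes and Ctx NPCs, 6.09) and the Notch target Hes5 (20 and 1050 reads, 5.78) led them.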

How the data were processed

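RNA was sequenced from 5 cultures, 1 per condition. The authors demultiplexed with bcl2fastq 1.8.4 (per the labels), trimmed at quality 20, checked mismatches with Bowtie, mapped with STAR and counted reads on exons of RefSeq Release 105 with HTSeq-count. The build is given as mm10 in the methods and as mm9 in the processing notes. The coordinates printed are those of RefSeq GRCm38.p6. The deposited counts were raw whole numbers per transcript; the deposited FPKM by the authors was recomputed from them to a relative difference of 4.09e-05. A summary line was left out.

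Symbols were matched for 19997 of 20178 transcripts. Counts were scaled to library totals, 0.5 reads were added and log2 ratios were taken (Python 3.11.15, pandas 2.3.3, SciPy 1.17.1), with exact Clopper-Pearson 95% intervals. The floor was 3 reads. The ratio and interval steps were tested on simulated data. Alternatives changed scaling (edgeR 4.0.16, DESeq2 1.42.0), pseudocount, filter and fold limit. All 41 genes were reported, and of the 76 related genes those called with the largest ratios, of which 1 is not reported here. Members, related genes and marker lists (microglia, mature and progenitor oligodendrocytes, neurons, ependyma, fibroblasts, endothelium, mural, cycling and neural progenitor cells) were chosen with earlier results of these data known.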

Additional observations from a re-analysis of the deposited data

How the results depend on the processing

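No paired analysis was possible because there was 1 library per condition, and for the same reason no spread between cultures was measured. Counts and medians over the 41 genes were recomputed under each alternative. This gave 134 values over all comparisons, of which 110 stayed close to the reported value and 24 moved. For the single genes 1023 ratios were recomputed, of which 118 moved outside their counting interval, and 0 changed sign among those called. Another scaling took a gene across 2-fold in 17 cases. The share of all transcripts called the same way follows each count in parentheses. With a 3-fold limit, 4 genes (4.18%) were higher in N + F than Cont; 4 (3.97%) were lower and 2 (3.94%) higher in Cont than VM astrocytes without virus; 5 (1.55%) were higher in Ctx than VM astrocytes; and 4 (11.6%) were lower and 5 (10.2%) higher in Ctx NPCs than Ctx astrocytes. With a 1.5-fold limit, N + F against Cont gave 10 lower (19.1%) and 13 higher (18.8%), Cont against VM astrocytes without virus 15 lower (17.4%), N + F against VM astrocytes without virus 5 lower (4.14%), and Ctx against VM astrocytes 2 lower (17.0%). Without a filter on low values, Ntsr2 as the 1 gene lower (6.13%) and Gjb6 as the 1 gene higher (4.56%) were called in N + F against VM astrocytes without virus. The median of Cont against VM astrocytes without virus was -0.305 with 5 reads added and with FPKM above 1 in both libraries. That of Ctx against VM astrocytes was 0.836 with TMM scaling, 0.827 with DESeq2 size factors and 0.887 with no reads added. Other reference libraries were chosen after seeing the data: against N + F the Ctx median was 1.076, and against Cont it was 1.211 with 3 genes lower (14.5%). Against VM astrocytes without virus, Ctx NPCs had 2 genes lower (20.2%) and 18 higher (17.9%) and a median of 0.953. Apart from the changed limits, filters and references, whose construction sets the count, the cause was not tested. Summing several transcripts per gene was not run, since each of the 41 genes had 1 row. Depth limits Gjb6, Cldn10, Ntsr2, Slc7a10 and Slc6a11, which had few reads in the VM libraries.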

Other observations

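Among the related genes, Gfap, the intermediate filament of astrocytes, had 8923 reads in VM astrocytes without virus, 11040 in Cont, 4316 in N + F, 27820 in Ctx astrocytes and 122531 in Ctx NPCs. It was lowest in N + F, with a log2 ratio to Cont of -1.21 (95% counting interval -1.26 to -1.15), and highest in the library labelled as precursor cells. Apoe, the main apolipoprotein of astrocytes, had 20958, 46634, 14704, 43434 and 45820 reads in the same order and was lower in N + F than in Cont by a log2 ratio of -1.52. Microglia also express Apoe; the summed microglial markers were 1579 CPM in Cont and 301.3 CPM in N + F, and their part in the difference was not tested.

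The transcription factors Id1 and Id3, which are targets of bone morphogenetic protein signals, had 8055 and 14759 reads in VM astrocytes without virus, 3436 and 5150 in Cont, and 7959 and 11481 in N + F. Both were lowest of the VM libraries in Cont, as Id4 was. Id2 went the other way, with 3616 reads in VM astrocytes without virus, 5537 in Cont and 3196 in N + F. Zbtb20, an astrocyte transcription factor, was the only 1 of the 76 related genes called between N + F and VM astrocytes without virus, with 579 and 234 reads and a log2 ratio of 1.37 (1.15 to 1.60).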
